A study of Mus musculus with 54 samples.

Results

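The 8 genes described here encode the receptors through which a follicle reads gonadotropins and estrogen and the transcription factors that define its granulosa cells. They were taken by symbol, namely Fshr, Lhcgr, Esr1, Esr2, Nr5a1, Nr5a2, Foxl2 and Gata4, and all 8 were found among the 25149 genes of the deposited tables. Secondary follicles of CD-1 mice aged 14 to 16 days were cultured for 8 days inside beads of alginate hydrogel and then spent 12 h in maturation medium with fetal bovine serum, EGF and recombinant FSH, which all groups shared. Single follicle sides were profiled by Smart-Seq2, an amplification protocol for very small amounts of RNA. Without hCG, an analog of luteinizing hormone, there were 15 libraries of the putative unruptured side and 14 of the putative ruptured side, which were told apart by the optical density of the follicle wall. Post-hCG there were 12 libraries of the unruptured side and 13 of the ruptured side, where the rupture itself marked the side. The labels tie neither sides nor replicate numbers to follicles, so p-values measure the spread between libraries. Per the study, isolation by enzymes costs the follicles much of their theca, which grows back during culture.

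In a growing follicle, FSH acts through the FSH receptor on granulosa cells, and LH acts first through the LH/choriogonadotropin receptor of theca cells. Mural granulosa cells acquire the LH receptor late, so that the preovulatory surge, or hCG in its place, can reach them and start luteinization. Estrogen receptor beta is the main estrogen receptor of granulosa cells and estrogen receptor alpha that of theca and stroma. The orphan nuclear receptors SF-1 (Nr5a1) and LRH-1 (Nr5a2) recognise the same DNA half-site and drive steroidogenic genes, while FOXL2 and GATA4 maintain the identity of ovarian somatic cells.

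Library totals ranged from 1497138 to 2834794 estimated counts. In the labels the tissue is given as cumulus-oocyte complex, but the methods of the study state that the complexes were removed. Oocyte markers had a median of at most 0.2 TPM (counts scaled by the authors to transcript length and library) summed over 9 genes in every group, and 1 library, putative unruptured replicate 1, stood apart with 158 TPM. Granulosa markers (9 genes) had a median sum of 4480 TPM (range 1840 to 8200) in putative unruptured and 14700 TPM (6790 to 22300) in putative ruptured libraries, and of 1940 TPM (1200 to 2580) and 1880 TPM (1220 to 2800) in unruptured and ruptured libraries post-hCG. Inha was the highest of them in every group, and Amh was at 0 in all libraries of both ruptured-side groups. By edgeR 5 of 8 granulosa markers tested were higher on the putative ruptured side (8.84% of all genes) and 0 lower. On the ruptured side post-hCG 2 of 6 were higher and 1 lower (10% and 11.3% of all genes). With hCG 7 of 8 and 7 of 7 fell on the unruptured and ruptured side (27.7% and 30.4% of all genes). The granulosa sum thus moved with hCG and, without hCG, with side, as several members did. Post-hCG the sums of the 2 sides lay in much the same range. The part of the granulosa sum in the values of the members was not tested. Theca markers (12 genes) were lower on the ruptured side: the sums ran from 37.5 to 2790 TPM against 6.85 to 577 TPM without hCG, and from 77.6 to 1340 TPM against 3.84 to 55.4 TPM post-hCG, where the sums of the sides did not overlap and Cyp17a1 was at 0 in all ruptured libraries. In samples of mixed cells, fewer cells of a type and less RNA per cell cannot be told apart.

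All 8 genes are protein coding, and their GENCODE M21 positions on GRCm38 are chr17:88984952-89200675 for Fshr, chr17:88716481-88791990 for Lhcgr, chr10:4611593-5005614 for Esr1, chr12:76120419-76177259 for Esr2, chr2:38692656-38714542 for Nr5a1, chr1:136842571-136960448 for Nr5a2, chr9:98955288-98958543 for Foxl2 and chr14:63198922-63271692 for Gata4. Esr1 and Foxl2 lie on the plus strand and the other 6 on the minus strand. Fshr and Lhcgr, which encode glycoprotein hormone receptors of one family, are neighbours in the same orientation, with 193 kb between them. No exon of a member overlaps an exon of another annotated gene, except for 12 bases at the start of Foxl2 that are shared with the antisense transcript Foxl2os, 0.369% of the exonic bases of Foxl2.

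The sequence just upstream of the start is shown for Fshr, Lhcgr, Esr2 and Nr5a2, the 4 members with the largest fold changes in any comparison, as RefSeq gives it on GRCm38.p6 (6 of the 8 members matched the promoter table). Each line holds the 250 bases before the start, 5′ to 3′ on the strand of the gene, and capitals mark the matches found on either strand to the motifs searched. The half-site of the NR5A receptors was searched as AAGGTCA, with its variant spelled AAGGCCA. The site of GATA factors was searched as AGATAA, with its variant spelled TGATAA. The forkhead motif was GTAAACA, the cAMP response element was TGACGTCA, the E-box was CACGTG and the GC box was GGGCGG, and the palindromic estrogen response element was also searched, with a spacer of any bases. The windows are chr17:89200676-89200925 (Fshr), chr17:88792015-88792264 (Lhcgr), chr12:76177260-76177509 (Esr2) and chr1:136960449-136960698 (Nr5a2, the upstream one of its 2 listed starts), all on the minus strand.
Fshr: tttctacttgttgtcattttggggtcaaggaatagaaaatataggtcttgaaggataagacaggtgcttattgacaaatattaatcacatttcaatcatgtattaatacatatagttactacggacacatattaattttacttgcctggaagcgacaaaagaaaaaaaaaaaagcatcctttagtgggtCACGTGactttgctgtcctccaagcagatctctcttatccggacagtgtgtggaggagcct
Lhcgr: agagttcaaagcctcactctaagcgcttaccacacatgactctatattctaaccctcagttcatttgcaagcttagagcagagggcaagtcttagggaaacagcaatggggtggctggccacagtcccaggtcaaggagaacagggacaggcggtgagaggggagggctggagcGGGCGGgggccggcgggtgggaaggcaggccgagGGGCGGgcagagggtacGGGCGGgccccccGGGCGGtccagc
Esr2: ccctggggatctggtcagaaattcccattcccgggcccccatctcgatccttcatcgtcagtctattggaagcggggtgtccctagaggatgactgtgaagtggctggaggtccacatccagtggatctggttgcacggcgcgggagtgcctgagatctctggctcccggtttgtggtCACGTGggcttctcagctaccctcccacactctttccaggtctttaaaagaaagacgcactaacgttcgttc
Nr5a2: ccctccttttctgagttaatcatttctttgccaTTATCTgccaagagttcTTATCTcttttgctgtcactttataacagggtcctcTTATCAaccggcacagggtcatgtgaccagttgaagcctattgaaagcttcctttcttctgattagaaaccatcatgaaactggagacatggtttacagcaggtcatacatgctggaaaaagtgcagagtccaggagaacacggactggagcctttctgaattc
The Fshr window, 36.8% G and C, holds 1 E-box, 61 to 56 bases before the start, and the Esr2 window holds 1 at 72 to 67 bases, a motif found in 6.04% of the 32536 windows of the table. The Lhcgr window, 63.2% G and C against a median of 52.4% over all windows, holds 4 GC boxes within 76 bases of the start, and 33% of all windows hold at least 1. For Lhcgr alone of the 4, the bases after this RefSeq start were not found in a GENCODE transcript. The start also lies upstream of the GENCODE position given above. The Nr5a2 window holds 2 matches to AGATAA and 1 to TGATAA, all on the opposite strand, which occur in 9.97% and 7.79% of windows. These letters describe the windows and do not show that a factor binds there, and the counts do not resolve which start was used.

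Among the gonadotropin receptors, Fshr, which carries the FSH signal for granulosa growth and estrogen synthesis, was higher on the putative ruptured side. Its level was 0 to 2.39 TPM (median 0.7) on the putative unruptured side and 0.88 to 8.36 TPM (median 3.21) on the putative ruptured side. All 14 putative ruptured libraries lay above the median of the other side and 10 above its highest library, although the ranges overlapped. The edgeR log2 fold change was 2.12 (SE 0.36, FDR 8.06e-05). Post-hCG, Fshr ranged from 0.86 to 5.48 TPM (median 2.38) in unruptured libraries and from 1.59 to 5.41 TPM (median 3.05) on the ruptured side, so the groups lay within one range, and the log2 fold change of 0.63 (SE 0.24) did not pass (FDR 0.0587; 0.0321 with replicate number as a block). With hCG, Fshr rose on the unruptured side (log2 fold change 1.60, SE 0.36, FDR 0.000357), whereas on the ruptured side the value was 0.11 (SE 0.26, FDR 0.72). The 2 responses differed, with an interaction of −1.49 (SE 0.45, FDR 0.0258), a call that was lost (−1.28, FDR 0.0579) without putative unruptured replicate 2 and putative ruptured replicate 6, the libraries with the highest Lhcgr of their groups. Fshr rests on few reads, 0 to 46 per library. The putative unruptured library at 0 had 2436359 counts in all, so that the 3 counts a 0 still allows would be 1.23 CPM, and such limits cover counting error only. Putative unruptured replicate 1, the library with the oocyte markers, held 20.9% of the Fshr counts of its group: without it Fshr fell under the expression filter in both comparisons that use that group, and the interaction was −1.70 (FDR 0.00922).

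Lhcgr, the receptor that hCG itself binds, had the largest post-hCG levels of the 8 genes. It ranged from 1.2 to 112.19 TPM (median 3.81) in putative unruptured libraries and from 1.11 to 118.86 TPM (median 10.7) on the putative ruptured side. After hCG the unruptured side held 61.7 to 279.95 TPM (median 147) and the ruptured side 129.28 to 470.22 TPM (median 295) on the ruptured side. Without hCG, 1 library of each side stood far above the rest, putative unruptured replicate 2 and putative ruptured replicate 6, and these held 49.9% and 41.9% of the Lhcgr counts of their groups. The next highest libraries reached 14.86 and 28.15 TPM, below every post-hCG library. Lhcgr rose with hCG on the unruptured side (log2 fold change 3.90, SE 0.53, FDR 2.34e-07) and on the ruptured side (4.20, SE 0.47, FDR 2.65e-09), where the groups did not overlap. Without the high libraries these values were 4.91 (FDR 1.17e-12) and 4.83 (FDR 1.81e-12). The interaction was 0.30 (SE 0.69, FDR 0.855) and turned to −0.08 (FDR 0.945) without them. Post-hCG, Lhcgr was higher on the ruptured side (1.28, SE 0.26, FDR 0.00041), with 12 of 13 ruptured libraries above the unruptured median and 8 above every unruptured library. In 1 fit of all 4 groups this difference was 1.29 with an FDR of 0.0645. Between the sides without hCG the value was 0.99 (SE 0.59, FDR 0.263), and without the high libraries it was 1.37 (SE 0.40, FDR 0.0182). These libraries were left out because of their Lhcgr level, which by itself narrows the spread of the gene tested. The refits of Lhcgr without them therefore describe their weight and give no independent support for a call.

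The 2 high libraries differed in their other members. Replicate 6 also had the highest Fshr of its group, 8.36 TPM, and theca markers of 15.4 TPM, whereas replicate 2 had 0.42 TPM of Fshr and theca markers of 633 TPM. On the TPM scale replicate 2 had the highest Esr1 (4.67 TPM), Nr5a1 (29.41 TPM) and Gata4 (52.83 TPM) of its group and, with 1507032 counts, its smallest total. For Esr1 this depends on the scale, since replicate 2 had 31 Esr1 counts, and putative unruptured replicate 7 had 54 in a total of 2462585. The part of these features in the Lhcgr levels was not tested.

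**Figure D1:**
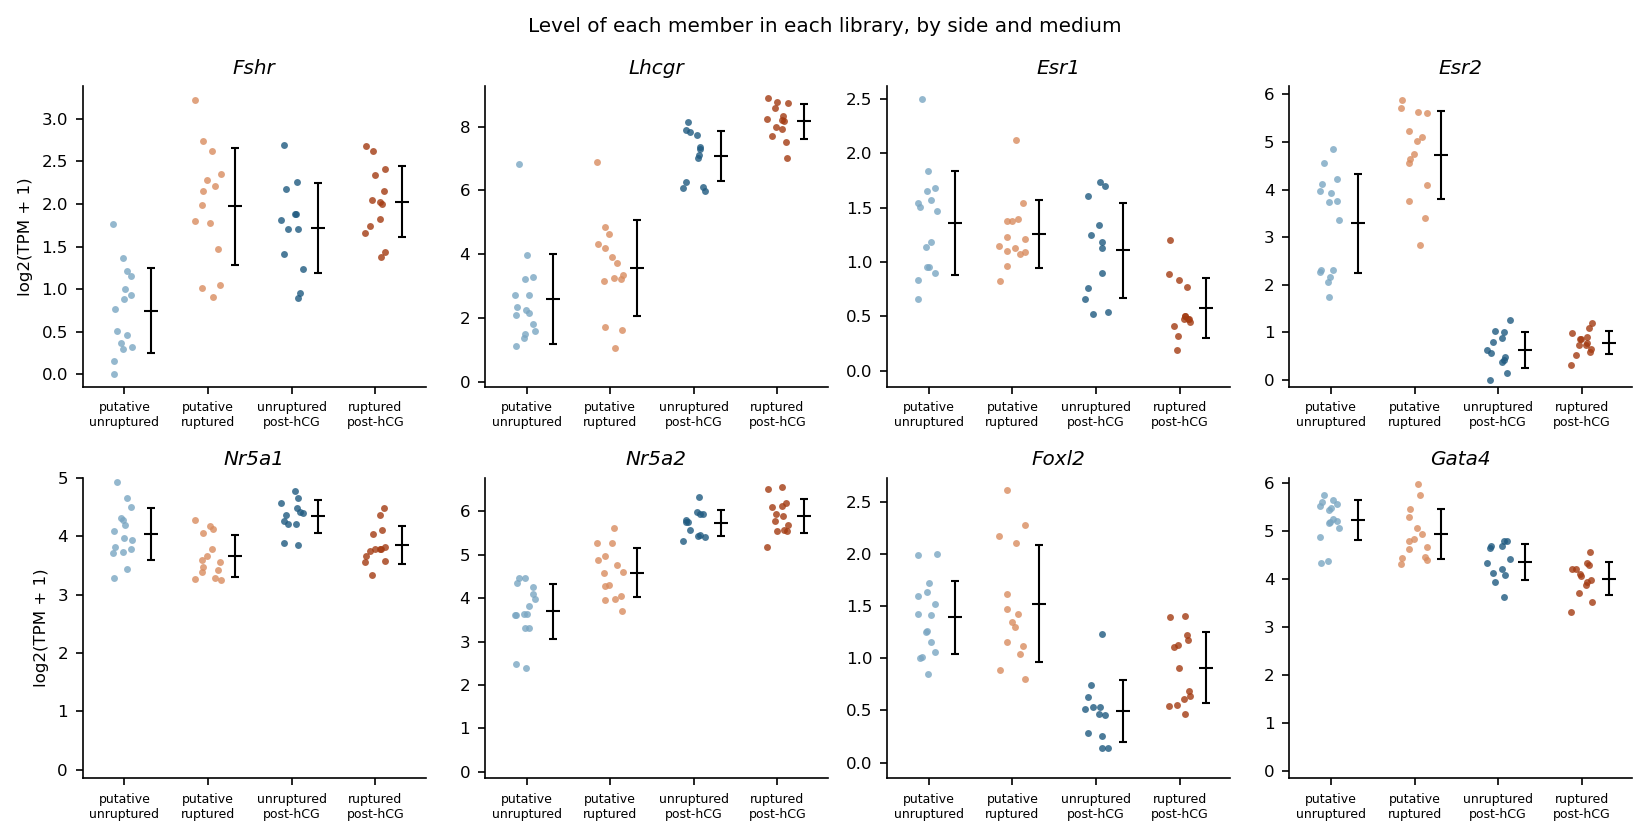
Level of each member as log2(TPM + 1) in every library (points; horizontal scatter has no meaning) of the 4 groups, with the group mean and SD (bar; n = 15, 14, 12 and 13), each panel with its own axis. Lhcgr and Nr5a2 sit high and Esr2 sits low in the post-hCG groups, and 1 library of each side without hCG has Lhcgr near the post-hCG levels.

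The estrogen receptors fell with hCG on both sides, Esr2 by far the more. Esr2, which mediates the estrogen response of granulosa cells, ranged from 2.32 to 27.8 TPM (median 12.4) in putative unruptured libraries and from 6.17 to 58.06 TPM (median 28.7) in putative ruptured libraries. Post-hCG it ranged from 0 to 1.4 TPM (median 0.515) in unruptured libraries and from 0.24 to 1.28 TPM (median 0.7) on the ruptured side. Every post-hCG library lay below every library of the same side without hCG. The log2 fold change was −4.31 (SE 0.45, FDR 1.09e-09) on the unruptured side and −5.24 (SE 0.33, FDR 5.22e-15) on the ruptured side. The interaction was −0.94 (SE 0.64, FDR 0.4), and in limma on log2(TPM + 1) −1.30 with an FDR of 0.0301. Without hCG, Esr2 was higher on the putative ruptured side (1.52, SE 0.35, FDR 0.00214), with 7 of 14 libraries above the highest of the other side. Post-hCG it had at most 14 counts in a library, failed the filter and, in the fit of all 4 groups, had a log2 fold change between sides of 0.58 (SE 0.55, FDR 0.514).

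Esr1, the alpha receptor, had medians between 0.39 and 1.77 TPM. It ranged from 0.58 to 4.67 TPM (median 1.77) in putative unruptured libraries and from 0.77 to 3.36 TPM (median 1.27) in putative ruptured libraries, and post-hCG from 0.43 to 2.33 TPM (median 1.23) in unruptured libraries and from 0.14 to 1.3 TPM (median 0.39) on the ruptured side. It fell with hCG on the unruptured side (−0.82, SE 0.23, FDR 0.00303; limma on log2(TPM + 1) gave −0.25 with an FDR of 0.257) and on the ruptured side (−1.11, SE 0.18, FDR 2.87e-06). On the ruptured side 10 of 13 post-hCG libraries lay below every library without hCG. Between the sides it did not pass without hCG (−0.34, SE 0.19, FDR 0.236), and post-hCG it failed the filter and had a value of −0.63 (SE 0.24, FDR 0.0536) in the fit of all 4 groups. Theca markers were lower on the ruptured side in both media, and within groups the Pearson r of Esr1 with their sum ran from −0.16 to 0.44.

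The NR5A receptors differed in their response to hCG and in the direction of the side difference. Nr5a2, required in granulosa cells for ovulation and luteinization, ranged from 4.22 to 21.1 TPM (median 11.4) in putative unruptured libraries and from 12.11 to 47.7 TPM (median 23.2) in putative ruptured libraries. Post-hCG it ranged from 39.11 to 78.99 TPM (median 52.7) in unruptured libraries and from 35.29 to 93.96 TPM (median 58.4) on the ruptured side. On the unruptured side the groups with and without hCG did not overlap, and on the ruptured side 9 of 13 post-hCG libraries lay above every library without hCG. Nr5a2 rose with hCG on both sides (2.12, SE 0.14, FDR 5.56e-14, unruptured, and 1.56, SE 0.15, FDR 1.06e-10, ruptured). It was higher on the putative ruptured side (1.10, SE 0.17, FDR 2.48e-05) and on the ruptured side post-hCG (0.53, SE 0.10, FDR 0.000271). The latter difference was small on the TPM scale, where limma on log2(TPM + 1) gave 0.17 with an FDR of 0.389. The interaction of −0.56 (SE 0.21) did not pass (FDR 0.0759), but passed when only library totals were used for scaling (−0.64, FDR 0.0412).

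Nr5a1, the steroidogenic factor SF-1 of both theca and granulosa cells, had medians between 10.9 and 19.9 TPM. It ranged from 8.75 to 29.41 TPM (median 14.7) in putative unruptured libraries and from 8.49 to 18.4 TPM (median 10.9) in putative ruptured libraries, and post-hCG from 13.41 to 26.49 TPM (median 19.9) in unruptured libraries and from 9.06 to 21.5 TPM (median 12.8) on the ruptured side. It was lower on the putative ruptured side (−0.37, SE 0.12, FDR 0.0305; 0.105 by limma on log2(TPM + 1)) and on the ruptured side post-hCG (−0.23, SE 0.09, FDR 0.0465). Post-hCG, 9 of 13 ruptured libraries lay below every unruptured library. The post-hCG call was lost without unruptured replicate 4, the library with the highest theca markers post-hCG (−0.24, FDR 0.0511), without the expression filter (FDR 0.115) and in the fit of all 4 groups (FDR 0.153). With hCG it rose on the ruptured side (0.37, SE 0.10, FDR 0.00217), but scaling by library totals gave 0.05 (FDR 0.737). On the unruptured side the value was 0.23 (SE 0.11, FDR 0.0947).

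Both granulosa identity factors fell with hCG. Foxl2, the forkhead factor that keeps granulosa cells from a testicular fate, ranged from 0.8 to 2.98 TPM (median 1.66) in putative unruptured libraries and from 0.74 to 5.09 TPM (median 1.62) in putative ruptured libraries. Post-hCG it ranged from 0.1 to 1.35 TPM (median 0.405) in unruptured libraries and from 0.38 to 1.64 TPM (median 0.87) on the ruptured side. On the unruptured side 11 of 12 post-hCG libraries lay below every library without hCG, and on the ruptured side 6 of 13. The log2 fold changes were −2.03 (SE 0.28, FDR 3.35e-07) and −1.04 (SE 0.28, FDR 0.00187), and their difference, the interaction, was 0.98 (SE 0.42, FDR 0.133). Between the sides it did not pass without hCG (0.35, SE 0.26, FDR 0.387). Post-hCG, with at most 18 counts in a library, it failed the filter, and it was higher on the ruptured side when the filter was left out (1.33, SE 0.30, FDR 0.00177) and in the fit of all 4 groups (1.33, SE 0.35, FDR 0.00373).

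Gata4, a zinc finger factor of granulosa and theca cells, had the highest median of the 8 genes on the putative unruptured side. It ranged there from 19.29 to 52.83 TPM (median 37.3), and from 19.06 to 62.56 TPM (median 27.3) in putative ruptured libraries. Post-hCG it ranged from 11.45 to 26.99 TPM (median 19.9) in unruptured libraries and from 8.97 to 22.6 TPM (median 15.7) on the ruptured side. It fell with hCG on the unruptured side (−1.01, SE 0.14, FDR 5.05e-07) and on the ruptured side (−0.78, SE 0.14, FDR 2.16e-05), where 11 of 13 post-hCG libraries lay below every library without hCG. The sides did not differ past the threshold without hCG (−0.24, SE 0.15, FDR 0.285) or post-hCG (−0.02, SE 0.13, FDR 0.949). The post-hCG value depends on the scale: in TPM, 12 of 13 ruptured libraries were under the median of the unruptured side, and the difference was −0.36 (FDR 0.0647) by limma on log2(TPM + 1) and −0.15 (FDR 0.457) with library totals.

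Counted by comparison, hCG changed more members than side did, against a background in which hCG also changed more genes. Between the sides without hCG 4 of 8 members passed, where 17.8% of the 9063 genes tested did: Fshr, Esr2 and Nr5a2 were higher and Nr5a1 lower on the putative ruptured side (8.84% and 8.96% of genes). Post-hCG 3 of the 5 members that passed the filter did (21.4% of 8585 genes), with Lhcgr and Nr5a2 higher and Nr5a1 lower on the ruptured side (10% and 11.3% of genes). For hCG on the unruptured side 7 of 8 passed (53.1% of 9320 genes), with 3 higher and 4 lower (25.4% and 27.7% of genes), and Nr5a1 did not. For hCG on the ruptured side 7 of 8 passed (60.1% of 8531 genes), again 3 higher and 4 lower (29.7% and 30.4% of genes), and Fshr did not. In the interaction 1 of 8 passed, Fshr, with a more negative response on the ruptured side (8.91% of 10013 genes passed, 4.25% more positive and 4.65% more negative there), and without the 2 libraries of high Lhcgr its value was −1.28 (FDR 0.0579), which left 0 of 8 (3 at an unadjusted p under 0.05 in edgeR). Among all genes the TPM of the groups did not overlap for 0.0331% of genes between the sides without hCG and 1.18% post-hCG, and for 5.27% and 7.77% between media on the unruptured and ruptured side. Of the members, 0 did so between sides, 2 on the unruptured side (Esr2 and Nr5a2) and 2 on the ruptured side (Lhcgr and Esr2). The 2 side comparisons and the 2 hCG comparisons share libraries, so their values are given side by side. The direction of calls over all genes depended on the scaling: between 47.0% and 49.7% of the genes called were higher, against 17.8% to 39.3% with library totals alone and 9.25% to 56.3% in limma on log2(TPM + 1).

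**Figure D2:**
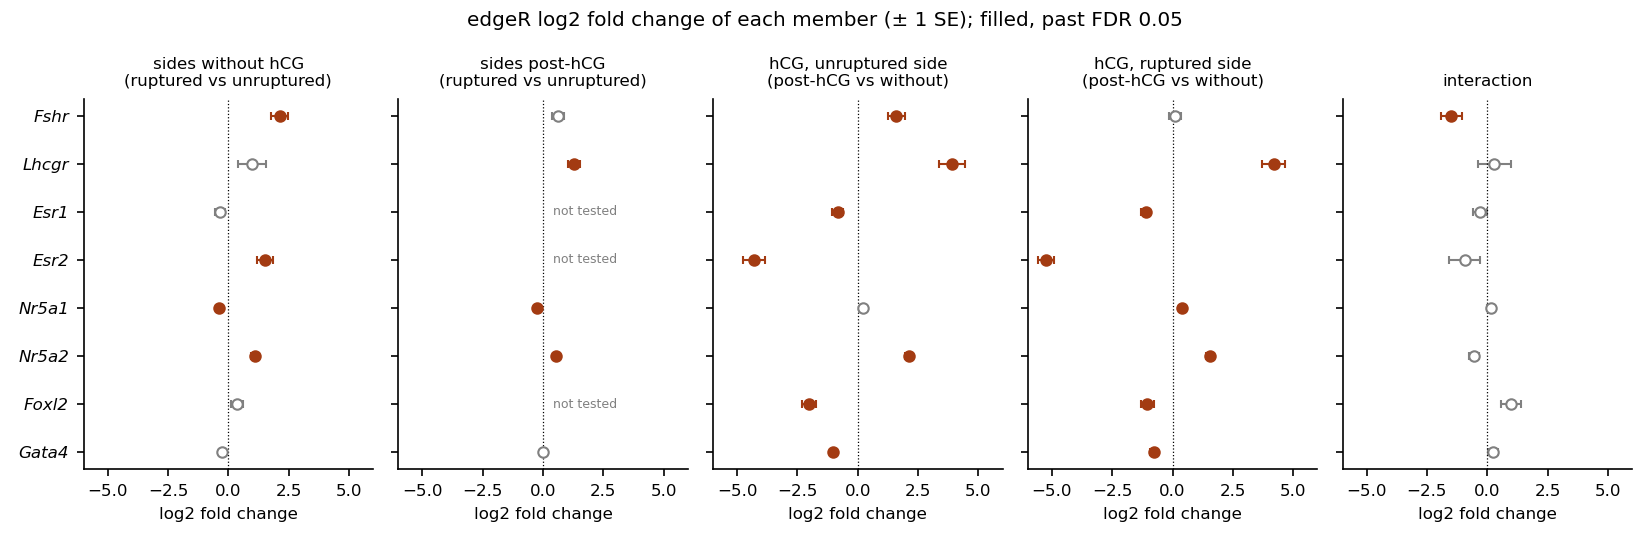
The edgeR log2 fold change of each member (points, bars ± 1 SE) in the 5 comparisons, positive where the ruptured side or the post-hCG medium was higher. Filled points passed an FDR of 0.05, and Esr1, Esr2 and Foxl2 were not tested between the sides post-hCG; Esr2 and Lhcgr lie farthest from 0 under hCG.

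The balance between related receptors was followed within each library as a log2 ratio of TPM + 1, with 12 comparisons adjusted together. Lhcgr exceeded Fshr in all 54 libraries. The log2 ratio was 1.86 ± 1.48 (SD, n = 15) for putative unruptured and 1.60 ± 0.99 (n = 14) for putative ruptured libraries, and 5.35 ± 0.65 (n = 12) and 6.14 ± 0.48 (n = 13) post-hCG. It rose with hCG by 3.49 on the unruptured and 4.54 on the ruptured side (adjusted permutation p = 3e-05 for both, from raw values of 1e-05, the smallest the resampling can give) and was 0.78 higher on the ruptured side post-hCG (adjusted p = 0.00323). Without hCG the sides differed by −0.26, less than the spread between libraries (adjusted p = 0.611), a size that depends on the scale: it was −1.06 (adjusted p = 0.0634) with a pseudocount of 0.1 TPM and −0.72 (adjusted p = 0.186) on CPM, with no call on any of them (permutation tests).

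Esr1 lay below Esr2 in all 29 libraries without hCG, with log2 ratios of −1.93 ± 1.17 for putative unruptured and −3.48 ± 1.04 for putative ruptured libraries, a difference of −1.55 (adjusted p = 0.0016). Post-hCG the ratio was 0.48 ± 0.75 on the unruptured side, where 10 of 12 libraries had more Esr1 than Esr2, and −0.20 ± 0.34 on the ruptured side, where 2 of 13 did (difference −0.68, adjusted p = 0.00739). The size of this difference depends on the pseudocount, being −1.58 at 0.1 TPM and −1.04 on CPM. The ratio rose with hCG by 2.41 on the unruptured (adjusted p = 8.57e-05) and 3.27 on the ruptured side (adjusted p = 3e-05), with both receptors near or below 1 TPM in the post-hCG groups.

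Nr5a2 exceeded Nr5a1 in 5 of 15 putative unruptured and 12 of 14 putative ruptured libraries, and in all 25 libraries post-hCG. The log2 ratio rose in the order putative unruptured (−0.35 ± 0.68), putative ruptured (0.92 ± 0.62), unruptured post-hCG (1.38 ± 0.32) and ruptured post-hCG (2.04 ± 0.39). The sides differed by 1.28 without hCG (adjusted p = 8.57e-05) and by 0.66 post-hCG (adjusted p = 0.000135), and hCG raised the ratio by 1.73 on the unruptured (adjusted p = 3e-05) and 1.12 on the ruptured side (adjusted p = 4.8e-05).

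**Figure D3:**
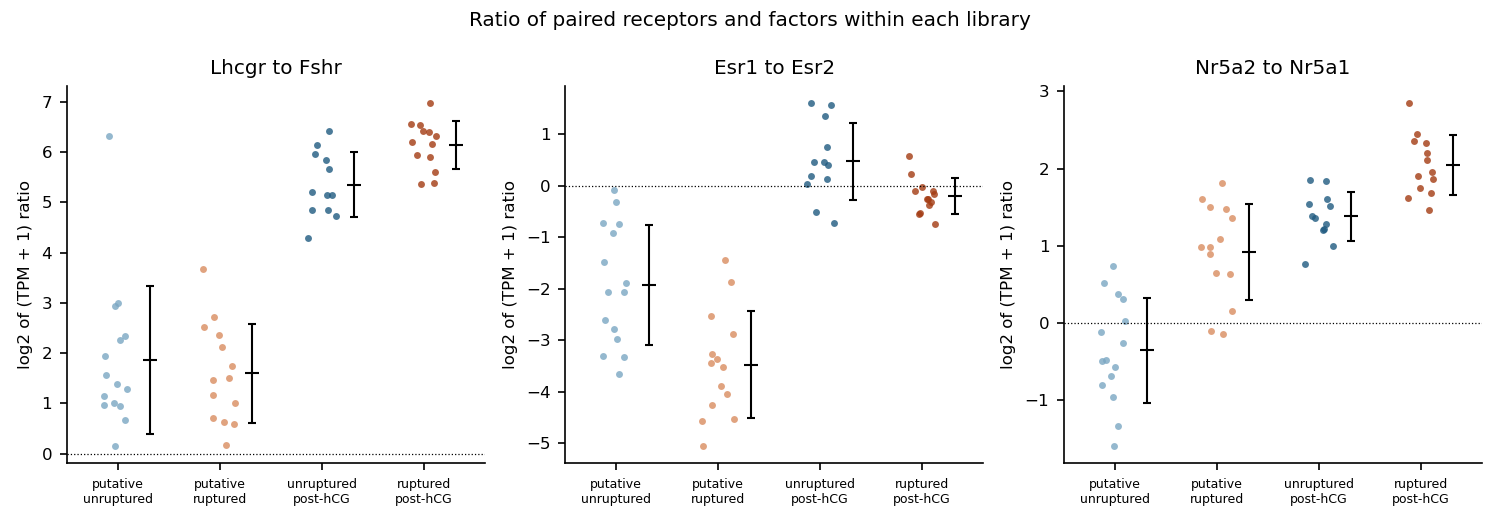
Log2 ratio of TPM + 1 between paired genes in each library (points) of the 4 groups, with mean and SD (bar); the dotted line marks equal levels. The Lhcgr to Fshr ratio lies above 0 in all 54 libraries, the Esr1 to Esr2 ratio is below 0 in all libraries without hCG, and the Nr5a2 to Nr5a1 ratio is above 0 in all post-hCG libraries.

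Ordering the 4 groups by each member's mean log2(TPM + 1) gave 24 pairs of neighbours, 11 of which differed in the fit of all 4 groups. Of the 10013 genes in that fit 19.9% differed between the sides without hCG and 18.2% post-hCG, 53.4% and 58.4% between media on the unruptured and ruptured side, 59.6% between the putative unruptured and the ruptured side post-hCG, and 54.9% between the putative ruptured and the unruptured side post-hCG. Nr5a2 was the single member for which all 3 neighbouring pairs differed, from putative unruptured over putative ruptured and unruptured post-hCG to ruptured post-hCG. For Lhcgr, in the same order, the one neighbouring pair that differed was putative ruptured against unruptured post-hCG (log2 fold change 2.91, FDR 2.56e-06). Fshr was lowest on the putative unruptured side (1.60 below the unruptured side post-hCG, FDR 8.01e-05), and the steps from there to the putative ruptured side and on to the ruptured side post-hCG did not differ. For Esr1 no neighbouring pair differed, the nearest being ruptured post-hCG under unruptured post-hCG (0.63, FDR 0.0536) and unruptured post-hCG under putative ruptured (0.47, FDR 0.0511). Esr2 and Foxl2 each had 2 differing pairs, Gata4 1 (putative ruptured over unruptured post-hCG, 0.77, FDR 1.5e-05) and Nr5a1 1 (ruptured post-hCG over putative ruptured, 0.38, FDR 0.00254).

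Within groups, few pairs of members could be shown to vary together. Of 112 correlations (28 pairs in each of 4 groups, log2(TPM + 1), permutation tests) 79 were positive, 20 had an unadjusted p under 0.05 and 1 passed adjustment, Fshr with Lhcgr on the putative ruptured side (n = 14, Pearson r = 0.84, p = 0.00023, adjusted p = 0.0258, and Spearman rho = 0.68, p = 0.00939, adjusted p = 0.151). Without the 2 libraries farthest from the median of Fshr, r was 0.69. Foxl2 with Gata4 in ruptured post-hCG libraries came next (n = 13, r = 0.80, p = 0.00094, adjusted p = 0.0526, rho = 0.88, p = 0.00018, adjusted p = 0.0202, r = 0.80 without the 2 farthest libraries). Esr2 with Nr5a2 had r = 0.69 on the putative unruptured side (n = 15, permutation p = 0.00373, adjusted p = 0.0889, rho = 0.62, p = 0.0156, r = 0.74 without the 2 farthest) and r = 0.72 on the putative ruptured side (n = 14, permutation p = 0.00397, adjusted p = 0.0889, rho = 0.79, p = 0.00125, r = 0.67 without them). On log2 CPM (counts scaled by library) the latter was r = 0.90 (adjusted permutation p = 0.00112). On that scale Foxl2 with Gata4 in ruptured post-hCG libraries had r = 0.65 (adjusted permutation p = 0.168) and rho = 0.76 (adjusted permutation p = 0.102). The number of positive pairs depended on the scale: on log2 CPM 62 of 112 were positive, with a median r of 0.04 against 0.20 on log2(TPM + 1). Fshr with Nr5a2 (r = 0.85, adjusted permutation p = 0.00523) and Lhcgr with Nr5a2 (r = 0.79, adjusted permutation p = 0.0157) also passed on log2 CPM, both on the putative ruptured side.

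**Figure D4:**
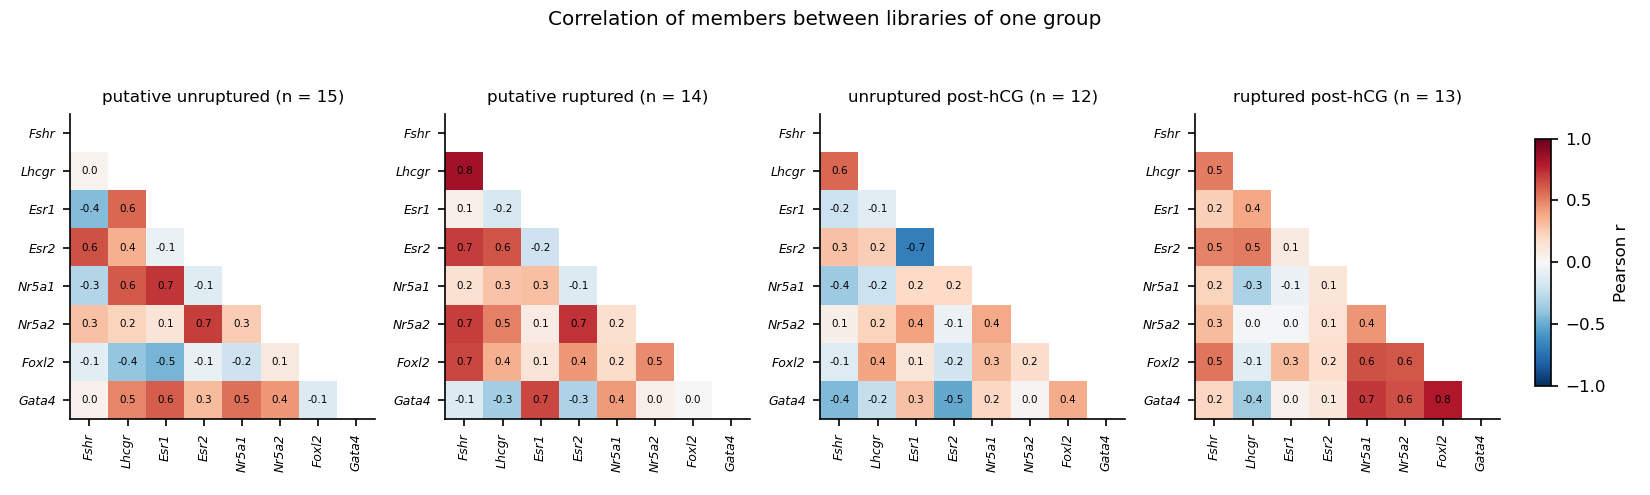
Pearson r of log2(TPM + 1) between members over the libraries of each group (one panel per group; cell color and printed value, rounded to 1 decimal). Fshr with Lhcgr on the putative ruptured side (0.84) is the one pair that passed adjustment over 112 tests.

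Because theca markers differed between the sides, each member was also set against their summed level within each group, a check chosen after the data had been seen. Of 32 Pearson correlations 2 had an unadjusted p under 0.05 and 0 passed adjustment (permutation tests). The largest Pearson value was negative, Esr2 on the putative unruptured side (n = 15, r = −0.65, permutation p = 0.00208, adjusted p = 0.0666, rho = −0.62, p = 0.0163, r = −0.56 without the 2 farthest libraries), and the other was Fshr on the putative ruptured side (n = 14, r = −0.60, permutation p = 0.0265, adjusted p = 0.424, rho = −0.60, p = 0.0249, r = −0.65 without them). Esr1 and Nr5a1 had positive values on the putative unruptured side (n = 15, r = 0.39 and 0.47, adjusted permutation p = 0.52 and 0.508). By Spearman, Esr1 there had the largest value of the 32 (rho = 0.67, permutation p = 0.00774, adjusted p = 0.199), and Nr5a1 had a rho of 0.60 (permutation p = 0.0216, adjusted p = 0.199).

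The genes whose levels were most like each member's over the 54 libraries, among 9888 genes averaging 1 TPM or more, were described by Pearson r, with no test since all libraries share the same 4 groups. They were Mid1ip1 (0.96) and Gja1 (0.96) for Esr2, Vnn1 (0.93), Sstr1 (0.93) and Fdxr (0.93) for Lhcgr, and Elovl6 (0.91), Cyfip2 (0.90) and Gramd1b (0.90) for Nr5a2. For Gata4 they were Glg1 (0.85), Gnai1 (0.84) and Tpbg (0.84), for Nr5a1 Plcb3 (0.83), Aebp1 (0.79) and Uba1 (0.79), and for Fshr Hsd3b1 (0.75), Plekhd1 (0.74) and Prkcd (0.73). For Foxl2 they were Socs2 (0.75), Foxo1 (0.74) and RP23-39F24.2 (0.74), and for Esr1 Zfp119a (0.69), Flrt2 (0.69) and Clic4 (0.69).

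After the group means had been subtracted, Mid1ip1 (0.82) remained among the 3 nearest to Esr2, behind Car14 (0.85), and Plcb3 (0.80) remained the nearest to Nr5a1, before Lipe (0.78) and Sf3b2 (0.78). For the other 6 members 0 of the 3 nearest remained. They were then Gsta4 (0.62), Hsd17b1 (0.61) and Sstr1 (0.61) for Fshr, Acsbg1 (0.71), Smim10l2a (0.69) and Hao2 (0.68) for Lhcgr, and Csgalnact1 (0.60), Fndc4 (0.58) and Brwd1 (0.57) for Esr1. For Nr5a2 they were Armcx5 (0.74), Creb3l2 (0.73) and Mast4 (0.72), for Foxl2 Dgcr2 (0.63), Atp5g3 (0.61) and Pcbp1 (0.57), and for Gata4 Vat1 (0.82) and Smek1 (0.82).

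Genes that act with the members were followed in 5 lists. Among other hormone and growth factor receptors (26 genes, 12 to 14 tested), 3 of 13 were higher and 3 lower on the putative ruptured side (8.84% and 8.96% of all genes), led by Igf1r, the IGF1 receptor (0.54, FDR 0.00026), and Paqr7, a membrane progestin receptor (0.66, FDR 0.00115), and by Pgrmc1 (−0.64, FDR 0.00224) and Ghr, the growth hormone receptor (−0.78, FDR 0.0139). Post-hCG 4 of 12 were higher and 2 lower on the ruptured side (10% and 11.3% of all genes), led by the oxytocin receptor Oxtr (1.11, FDR 3.26e-05), Lgr4 (0.77, FDR 3.36e-05), Ghr (−1.07, FDR 0.000193) and the AMH receptor Amhr2 (−0.50, FDR 0.0353). With hCG 7 rose and 3 fell of 13 on the unruptured side (25.4% and 27.7% of all genes; median log2 fold change 0.40, against −0.03 over all genes) and 8 rose and 2 fell of 12 on the ruptured side (29.7% and 30.4%; median 0.64, against −0.0012).
The genes with the lowest FDR were Paqr7 (2.01, FDR 4.52e-14), Lgr4 (1.62, FDR 3.27e-12), Amhr2 (−1.66, FDR 2.33e-11) and Ghr (−1.04, FDR 2.41e-06) on the unruptured side. On the ruptured side they were Oxtr (4.16, FDR 1.23e-16), Lgr4 (2.25, FDR 1.05e-15), Amhr2 (−1.93, FDR 1.75e-12) and Ghr (−1.32, FDR 0.000229).

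Of the genes that couple the receptors to cAMP and arrestins (22 genes, 15 to 17 tested), 2 of 15 were higher and 2 lower on the putative ruptured side (17.8% of all genes differed). Prkar2b, a regulatory subunit of protein kinase A, was higher (1.24, FDR 0.00162), as was Mvk, whose product binds Lhcgr mRNA (0.94, FDR 0.00454), and Gnas, the stimulatory G protein (−0.57, FDR 0.0141), and Prkar1a (−0.28, FDR 0.0437, and 0.0744 to 0.109 without the filter, in limma and with the replicate block) were lower. Post-hCG 3 of 17 were higher (21.4% of all genes differed), led by Prkar2b (0.97, FDR 0.000636) and Gna11 (0.44, FDR 0.00954), and 1 lower, Appl2 (−0.53, FDR 0.00445). In limma on log2(TPM + 1) the calls of Prkar2b (0.52, FDR 0.052) and Gna11 (0.07, FDR 0.768) were lost. That of Gna11 was also lost with library totals (0.30, FDR 0.0826). With hCG 6 rose and 5 fell of 17 on the unruptured side (25.4% and 27.7% of all genes), led by the arrestin Arrb1 (2.02, FDR 8.43e-14), Gna11 (0.89, FDR 4.4e-07), Prkar2b (−1.73, FDR 1.08e-05) and Prkacb (−0.57, FDR 8.7e-05). On the ruptured side 4 rose and 6 fell of 16 (29.7% and 30.4% of all genes), led by Gna11 (1.55, FDR 3.74e-11), Arrb1 (2.04, FDR 7.19e-11), Prkar2b (−1.97, FDR 1.84e-09) and Gnaq (−0.86, FDR 6.06e-08). The list medians lay between −0.06 and 0.08 in the 5 comparisons.

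Other gonadal transcription factors and Wnt pathway genes (29 genes, 12 to 15 tested) were also followed under hCG. On the unruptured side 8 of 14 tested fell and 3 rose (27.7% and 25.4% of all genes; list median −0.91 against −0.03), and on the ruptured side 7 of 12 fell and 3 rose (30.4% and 29.7%; −0.86 against −0.0012). The core-binding factors Runx2 (4.16, FDR 7e-19, and 4.99, FDR 4.3e-22) and Runx1 (2.44, FDR 1.79e-12, and 2.79, FDR 9.41e-14) rose, and Foxo1 (−2.23, FDR 6.7e-10, and −2.32, FDR 5.99e-14) and Sox4 (−1.99, FDR 8.94e-11, and −1.74, FDR 5.43e-11) fell, on the unruptured and ruptured side respectively. Median Runx2 went from 8.85 and 10.7 TPM without hCG to 265 and 503 TPM. On the putative ruptured side 3 of 14 were higher and 2 lower (17.8% of all genes differed), led by Foxo1 (1.04, FDR 0.000439), Foxo3 (0.69, FDR 0.000439), Nr2f2 (−1.09, FDR 0.000379; 0.116 by limma on log2(TPM + 1)), which is also one of the 12 theca markers, and Bnc2 (−0.54, FDR 0.0339). Post-hCG 4 of 12 were higher and 2 lower on the ruptured side (21.4% of all genes differed), led by Runx2 (0.79, FDR 1.2e-05), Foxo1 (0.93, FDR 2.92e-05), Wnt4 (−0.40, FDR 0.0335) and Bnc2 (−0.60, FDR 0.0338). Both of these last calls were lost without the expression filter (FDR 0.0518 and 0.0689) and in the fit of all 4 groups (FDR 0.208 and 0.0624).

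Coregulators of nuclear receptors (27 genes, 23 or 24 tested) were called with side in 3 of 24 genes tested without hCG, where 17.8% of all genes were, and in 2 of 23 post-hCG, where 21.4% were. On the putative ruptured side 2 were higher and 1 lower (Ncoa7 0.95, FDR 0.00253, Ncoa1 0.53, FDR 0.00659, and Hsp90aa1 −0.39, FDR 0.0258; FDR 0.0659 with the replicate block), and 1 was higher and 1 lower on the ruptured side post-hCG (Ptges3 0.42, FDR 0.00025, and Sra1 −0.25, FDR 0.0345). With hCG 8 rose and 7 fell of 24 on the unruptured side (25.4% and 27.7% of all genes), led by the steroid receptor chaperone Fkbp5 (3.92, FDR 5.17e-18), Cited4 (3.26, FDR 3.51e-15), the corepressor Nrip1 (−1.44, FDR 1.78e-10) and the estrogen-induced Greb1 (−2.50, FDR 5.09e-09). On the ruptured side 10 rose and 6 fell of 23 (29.7% and 30.4% of all genes), led by Fkbp5 (4.45, FDR 1.57e-19), Phb2 (1.56, FDR 2.7e-17), Nrip1 (−1.61, FDR 5.03e-14) and Greb1 (−2.92, FDR 3.37e-12). In the interaction 0 of 24 passed in edgeR, where 5 had an unadjusted p under 0.05 and 8.91% of all genes passed. In DESeq2 0 passed (7.97% of all genes), and in limma on log2(TPM + 1) 2 did (7.74% of all genes). With such shares a list of this size can hold few calls either way.

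The list of genes that act downstream of the members (28 genes, 20 to 25 tested) were called with side and with hCG. On the putative ruptured side 15 of 24 were higher and 2 lower (8.84% and 8.96% of all genes; median 1.27, against −0.0058 over all genes), led by the aromatase Cyp19a1 (3.22, FDR 1.05e-06) and the BMP antagonist Grem1 (2.31, FDR 1.39e-06), and by the steroidogenic Star (−2.06, FDR 0.002) and Cyp11a1 (−1.70, FDR 0.0122). The lists overlap: Hsd17b1, Inha, Gja1 and Fst, all among the 15, are also granulosa markers. Prkar2b is also in the coupling list and Greb1 among the coregulators. Star and Cyp11a1 are made by theca cells too, and the theca markers were lower on the same side, but their part in these values was not tested. Post-hCG, where the theca sums of the sides did not overlap, median Star was 341 TPM on the unruptured and 136 TPM on the ruptured side. Median Cyp11a1 was 3510 and 4270 TPM. Post-hCG 7 of 20 were higher and 4 lower on the ruptured side (10% and 11.3% of all genes), led by the activin antagonist Fst (2.34, FDR 4.59e-07), Inhbb (1.49, FDR 3.67e-05), Star (−0.95, FDR 0.000303) and Ccnd2 (−0.53, FDR 0.0216). In the fit of all 4 groups the calls of Star (−0.94, FDR 0.0766) and Ccnd2 (−0.51, FDR 0.0569) were lost. That of Ccnd2 was also lost in limma on log2(TPM + 1) (−0.53, FDR 0.346). With hCG 7 rose and 12 fell of 22 on the unruptured side (median −0.77; 25.4% and 27.7% of all genes) and 6 rose and 14 fell of 23 on the ruptured side (median −1.91; 29.7% and 30.4%). Those that rose were led by the electron carriers of steroid synthesis Fdx1 (3.85, FDR 3.1e-16, and 4.07, FDR 1.14e-17) and Fdxr (3.16, FDR 8.24e-15, and 3.48, FDR 2.63e-18). Those that fell were led by Igf1 (−4.65, FDR 1.57e-15, and −6.08, FDR 1.88e-16) and the gap junction gene Gja1 (−3.31, FDR 4.12e-13, and −4.55, FDR 4.22e-19), whose level was also among the 3 most like that of Esr2.

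**Figure D5:**
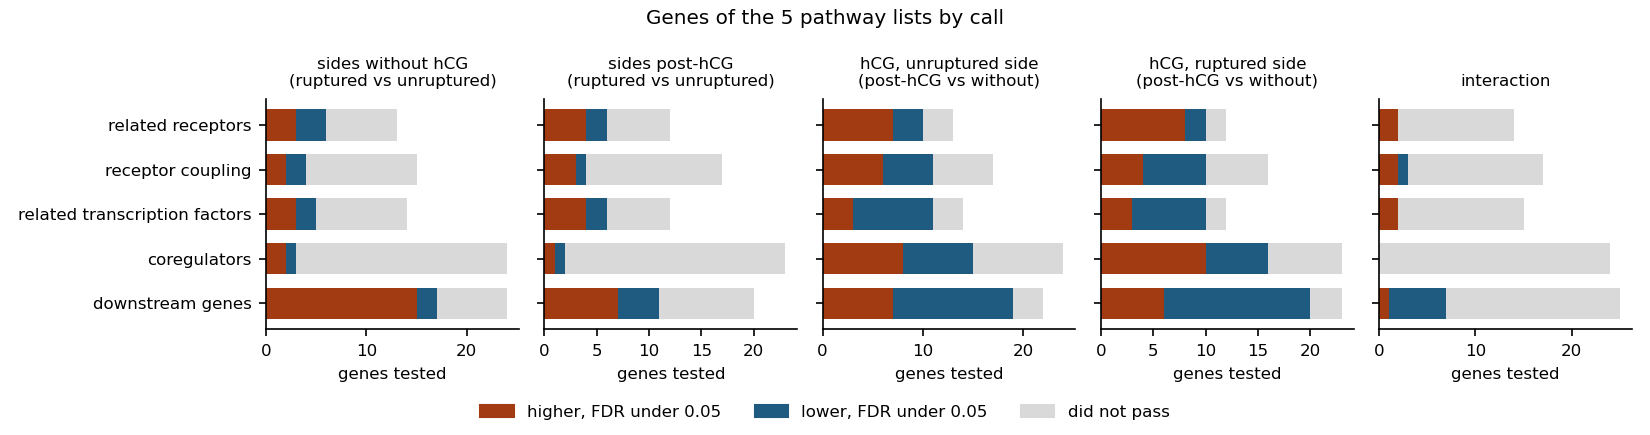
Number of tested genes in each of the 5 lists that were higher (red), lower (blue) or did not pass (grey) at an FDR of 0.05 in the 5 comparisons (panels). The downstream list has 15 of 24 genes higher on the putative ruptured side, and 12 of 22 and 14 of 23 lower with hCG on the unruptured and ruptured side.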

How the data were processed

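The 54 Smart-Seq2 libraries of follicle sides fell into 4 groups. Per the study's methods, HISAT2 placed the reads on GRCm38, ComBat-seq then adjusted the counts for batches, and TPM were derived from them by the authors. The counting program, annotation and batches are not given in the sources used here, nor whether the tables precede the correction, so batch could not be used as a term. The authors deposited estimated counts per gene, 72.2% of them whole where above 0, which were rounded, and TPM values scaled by transcript length and library, which summed to 585982 to 678417 per library. Of the columns 0 were left unmapped.

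After filterByExpr (minimum count 10, total 15) and TMM scaling, each comparison was fitted by the quasi-likelihood method of edgeR 4.0.16 under R 4.3.3, with Benjamini-Hochberg FDR over all genes tested and a threshold of 0.05. The 5 comparisons were the sides in each medium, hCG on each side and the interaction. A fit of all 4 groups served neighbouring groups. Ratios and correlations used log2(TPM + 1) and two-sided permutation tests with 100000 resamples (numpy 2.4.6, scipy 1.17.1). The edgeR scripts were tested on simulated data. Alternatives were DESeq2 1.42.0, limma 3.58.1 on log2(TPM + 1) or log2(TPM + 0.1), RLE size factors, library totals, no filter or a mean of at least 20 counts, replicate number as a block, all groups in one fit, a pseudocount of 0.1 TPM and CPM. Leaving out named libraries was decided on after seeing the data.

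The members and gene lists were chosen with earlier results of these data known. Named genes are the members, in each of the 5 lists and comparisons the 2 with the lowest FDR in each direction, and the 3 genes most like each member, some of which are not reported here. Markers of smooth muscle (5 genes), cumulus (3), endothelial (7), immune (7) and surface epithelium cells (7) reached at most 65.2, 94.1, 16.1, 12.6 and 39.4 TPM summed per library.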

Additional observations from a re-analysis of the deposited data

Results flagged for a closer look

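The response to hCG differed between the sides, by the interaction test of edgeR, for Fshr among the members. It also differed for 10 of the genes named from the lists, at most 2 in each list and direction. Over all 10013 genes tested 8.91% passed. For Fshr the interaction was −1.49 (SE 0.45, FDR 0.0258). It rose with hCG on the unruptured side, where its median went from 0.7 to 2.38 TPM, and had medians of 3.21 and 3.05 TPM on the ruptured side. The interaction was −1.28 with an FDR of 0.0579 without putative unruptured replicate 2 and putative ruptured replicate 6, the libraries with the highest Lhcgr of their groups, and −1.70 with an FDR of 0.00922 without putative unruptured replicate 1.

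Among the lists the response was more positive on the ruptured side for Oxtr (1.55, FDR 0.0161), Lgr4 (0.63, FDR 0.026), Gnas (0.92, FDR 0.00753), Gna11 (0.66, FDR 0.0211), Runx2 (0.83, FDR 0.0119), Ctnnb1 (0.52, FDR 0.0227) and Cyp11a1 (2.07, FDR 0.0113). It was more negative there for Appl2 (−0.81, FDR 0.0177), Inha (−1.78, FDR 0.000237) and Inhba (−3.54, FDR 0.000383), with median Inhba of 25.4 TPM for putative unruptured and 1120 TPM for putative ruptured libraries, and of 17.1 and 25.7 TPM post-hCG. Counting all genes tested, 2 of 14 receptors, 2 of 17 coupling genes, 2 of 15 transcription factors and 1 of 25 downstream genes were more positive (4.25% of all genes). In the same lists 0, 1, 0 and 6 were more negative (4.65% of all genes), the 6 including Gja1, Nppc, Grem1 and Igf1.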

How the results depend on the processing

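Of 81 refits of the counts of members, the ratios and the correlated pairs, 74 kept the direction and call, or a count within 1.5 times. For hCG on the unruptured side 4 of 5 members passed with a filter at a mean of 20 counts, which left 3 untested. In the interaction 2 passed with library totals and with limma on log2(TPM + 1), and 0 with that filter (1 of 5 at an unadjusted p under 0.05) and without the 2 libraries of highest Lhcgr. Correlated pairs numbered 4 on log2 CPM and 2 on log2(TPM + 0.1), of 112. Of 372 refits of single members 348 kept direction and call, 14 lost and 4 gained the call, and 6 turned, none of them called: Fshr for hCG on the ruptured side with library totals (−0.19), and in the interaction Gata4 (−0.0544 and −0.0641) and Nr5a1 (−0.113 and −0.117) with limma at pseudocounts of 1 and 0.1 TPM, and Lhcgr without its 2 highest libraries (−0.0846). Library totals alone gave median log2 fold changes over all genes of −0.246 and −0.325 for hCG on the unruptured and ruptured side, −0.137 for the sides post-hCG and −0.113 in the interaction. Of 86 results of list genes 65 passed in every refit and 21 did not, mostly on TPM, among them Igf1r, Mvk and Ncoa1 for the sides without hCG and Lgr4, Gna11, Ctnnb1 and Appl2 in the interaction. Without unruptured replicate 4 the side calls post-hCG of Amhr2 (−0.46, FDR 0.0651) and Sra1 (−0.25, FDR 0.0501) were lost, and without the 2 libraries of highest Lhcgr those of Bnc2 between the sides without hCG (−0.50, FDR 0.0531) and of Oxtr in the interaction (1.27, FDR 0.0501). The cause was not tested.

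Same-numbered libraries of 2 groups deviated together with r from −0.19 to 0.31, and 1 or 2 of 12 to 14 matched best with their own number. Since the sides are different tissue, this cannot decide whether equal numbers mark sides of 1 follicle. With the replicate block 4, 4, 7, 7 and 1 members passed in the 5 comparisons, against 4, 3, 7, 7 and 1. Few reads limit Fshr, Esr1, Foxl2 and, post-hCG, Esr2.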
